A study of Mus musculus with 4 samples.

Results

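The 10 genes described here are Notch receptors (Notch1, Notch2, Notch3), Notch ligands (Dll1, Dll3, Jag1), the receptor-modifying enzyme Lfng, and the Hes and Hey genes that Notch switches on (Hes1, Hes5, Hey1). They were found by symbol among the 55426 rows of the deposited expression table, each in a single row, and all 10 passed the filter on low values, a mean level of 1 or more over the libraries, which left 13931 genes for testing. Levels are in FPKM, the number of sequenced fragments divided by transcript length and by library depth. The opposite responses of Hes1 and Hes5 were part of the reason for choosing them, and members and lists were chosen with earlier results of these data known.

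Poly(A)-selected RNA was sequenced from mouse retinal organoids, which are aggregates of pluripotent stem cells guided in culture towards retinal progenitors. The 4 libraries were taken at day 6 from what the labels give as a single cell line with a Mettl3 knockout, an Rx:GFP reporter and a doxycycline-inducible HA-METTL3. The untreated group has 2 libraries, and the Dox group has 2 libraries from organoids given doxycycline at 2 µg/ml for 6 days. METTL3 is the catalytic subunit of the enzyme that writes N6-methyladenosine (m6A) on RNA, and the question put to the data is which transcripts change with Dox treatment. On these labels both groups share the knockout, the reporter and the inducible construct, whose promoter is not given in the sources used here. The titles, however, call the samples EV and EV+Dox without explaining EV, which could also stand for an empty vector, so the labels do not settle whether Dox switched METTL3 on, and the groups are compared here only as untreated and Dox. Nothing in the labels says whether the libraries of a group came from separate cultures, so p-values measure only the spread between these samples, which may be technical.

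Notch signalling passes between touching cells. A Delta or Jagged ligand on a neighbouring cell pulls on the Notch receptor, which is then cut by an ADAM protease and by gamma-secretase, and the freed intracellular part joins RBPJ and Mastermind proteins on DNA. The classical targets are the Hes and Hey genes, which encode repressors of proneural genes such as Neurog2. In the developing retina and brain the pathway is known for keeping progenitors undifferentiated, while newly forming neurons are a main source of the ligands Dll1 and Dll3.

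The fitted depth was 31700000 to 34900000 fragments per library, and 13813 to 13909 genes reached 1 FPKM. Mettl3, the targeted gene, was listed at 40.33 and 37.98 FPKM without Dox and at 45.2 and 46.37 FPKM with it, 1.17-fold higher, which did not pass the threshold (log2 fold change 0.22, SE 0.0681, adjusted p = 0.122 in limma). The table thus lists Mettl3 well above 0 in libraries labelled as a knockout, and its gene-level values cannot tell an inducible copy from the endogenous locus. Of 12 retinal progenitor markers, 10 were higher with Dox past the threshold, and their summed level was 236 to 252 FPKM without Dox and 1160 to 1360 FPKM with it. Rax, an eye-field transcription factor gene, stood at 1.12 and 0.82 FPKM in untreated replicates 1 and 2, and Six6, another, at 0.01 FPKM in both. Rax and Six6 were thus nearly absent in the untreated group, which does not hold for the whole list. The 2 markers that did not pass were high in both groups, at 118.86 to 130.69 FPKM and at 77.54 to 83.39 FPKM over the 4 libraries. In bulk RNA, fewer cells of a type and less RNA per cell cannot be told apart, which touches every difference below.

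With Dox, 6 of the 10 genes were lower and 1 was higher at an adjusted p below 0.05 in limma. The 6 were Dll1, Dll3, Jag1, Lfng, Hes5 and Hey1, with log2 fold changes between -1.62 and -1.01, and the 1 was Hes1, at 1.34. Notch1, Notch2 and Notch3 did not pass. Over all tested genes, 4.87% were called lower and 4.44% higher, and 9.31% were called in either direction. Libraries of the groups did not overlap for 7 genes lower with Dox and 1 higher, against 26.9% and 26.5% of all tested genes, or 53.4% in either direction. The median log2 fold change over the 10 genes was -1.10, and over all tested genes it was -0.0042. The opposite responses of Hes1 and Hes5 were part of the choice of the genes. The counts and the median therefore describe chosen genes and are no independent test of them. With 2 libraries against 2, an exact two-sided permutation test of a single gene cannot give a p below 0.333, so the calls depend on the variance estimate that limma pools over all genes. The same counts, 6 lower and 1 higher, were called in each of the 4 fits that left out a library.

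**Figure D1:**
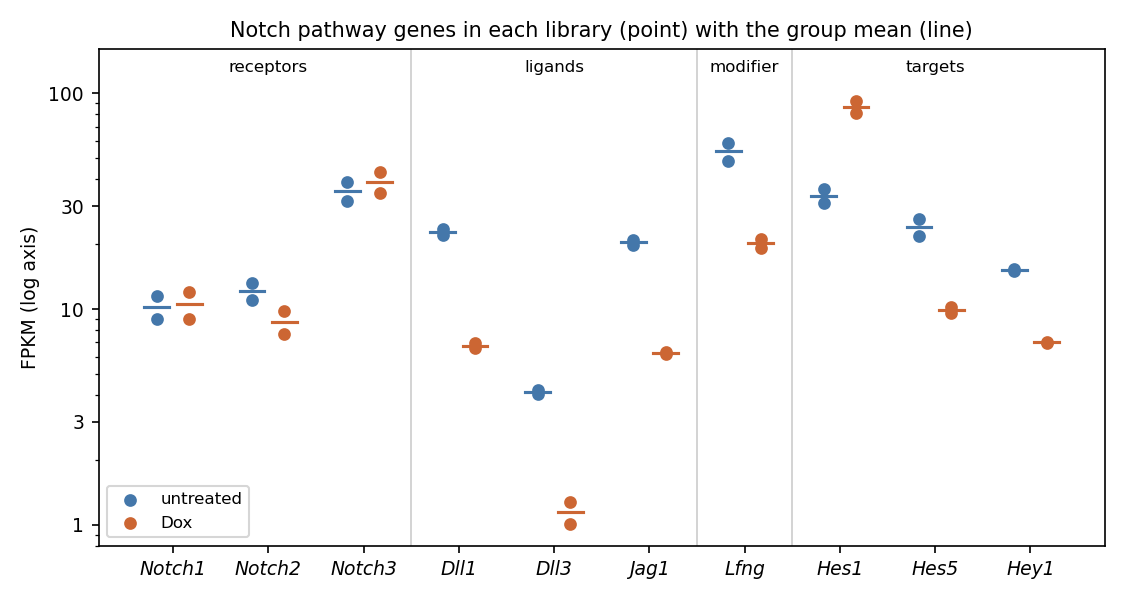
Expression of the 10 genes in each library, on a log axis of FPKM. Points are libraries (2 untreated, 2 Dox) and lines are group means. The 3 ligands, Lfng, Hes5 and Hey1 lie lower in both Dox libraries, Hes1 lies higher, and the points of Notch1 and Notch3 overlap.

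The promoter windows of Hes5 and Lfng are shown because both genes were lower with Dox and both windows hold the RBPJ core motif TGGGAA, through which Notch acts on DNA. They lie before the RefSeq transcription start (GRCm38.p6) and run 5′ to 3′ on the gene's strand, with capitals on every TGGGAA or its reverse complement TTCCCA. The Hes5 window is chr4:154960673-154960922 on the plus strand and ends at the base before the start. The Lfng stretch is chr5:140607091-140607319 on the plus strand. It stops at the base before the gene in GENCODE M21, so the last 21 bases before the RefSeq start at 140607341 are not printed.
Hes5: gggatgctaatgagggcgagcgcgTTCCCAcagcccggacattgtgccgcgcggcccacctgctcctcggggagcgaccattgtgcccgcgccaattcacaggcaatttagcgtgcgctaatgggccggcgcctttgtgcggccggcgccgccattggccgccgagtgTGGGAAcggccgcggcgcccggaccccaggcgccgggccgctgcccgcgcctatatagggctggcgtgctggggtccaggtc
Lfng: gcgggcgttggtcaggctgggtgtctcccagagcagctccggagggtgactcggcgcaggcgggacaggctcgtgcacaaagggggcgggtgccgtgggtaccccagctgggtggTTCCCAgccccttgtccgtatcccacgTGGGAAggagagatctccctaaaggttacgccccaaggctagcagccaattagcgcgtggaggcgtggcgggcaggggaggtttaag
Each window holds 2 matches, 1 on each strand. In Hes5 they begin 226 and 82 bases before the start, and in Lfng 135 and 108 bases before the RefSeq start, counted over the unprinted bases too. Of all 32851 RefSeq promoter windows of 250 bases, 21.6% hold at least 1 match and 2.77% hold 2 or more. The Lfng window also holds a longer form, CGTGGGAA, which 0.636% of all windows hold on either strand, and the Hes5 window does not. Both matches in the Hes5 window extend instead to TGTGGGAA, read on the strand of each match. This other longer form was not counted over all windows, so the windows are not ranked by longer forms.

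Windows were found for 8 of the 10 genes, and Hes1 and Hey1 were not among them. Dll1 had 2 windows and each other gene 1. No TGGGAA was found on either strand in the windows of Notch1, Notch2, Notch3, Dll1, Dll3 or Jag1, and of these Dll1, Dll3 and Jag1 were also lower with Dox. Hes5 and Lfng were thus the only ones of the 8 with a match, which 21.6% of all windows hold. A match is a run of letters and not a measured binding site, and its absence says only that these letters are not in the window.

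Jag1 and Dll1, the ligands with the highest levels, fell by nearly the same amount. Dll1 (ENSMUSG00000014773, chr17:15367354-15376872, minus strand) encodes a Delta ligand that activates Notch on neighbouring cells. It was listed at 23.61 and 22.09 FPKM without Dox and at 6.61 and 6.94 FPKM with it. Both Dox libraries lay far below both untreated ones, 3.37-fold lower by the means of 22.9 ± 1.07 and 6.78 ± 0.233 FPKM (SD, n = 2 each). The log2 fold change was -1.62 (SE 0.0845, adjusted p = 3.67e-04 in limma), which put Dll1 138th from the lowest of the 13931 tested genes.

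Jag1 (ENSMUSG00000027276, chr2:137081456-137116644, minus strand) encodes a ligand of the Jagged class, which in the eye is known for its role in the lens and the ciliary margin. Its values were 20.96 and 19.76 FPKM without Dox and 6.29 and 6.17 FPKM with Dox. The Dox libraries were close to each other and did not overlap the untreated ones. The log2 fold change was -1.56 (SE 0.0836, adjusted p = 3.93e-04 in limma). The level of Dll1 was 1.13 and 1.12 times that of Jag1 without Dox and 1.05 and 1.12 times with Dox, so the proportion of these ligand transcripts was nearly the same in all 4 libraries.

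Dll3 (ENSMUSG00000003436, chr7:28293553-28302238, minus strand) encodes a divergent Delta protein that is held largely inside the cell and does not activate Notch in neighbours. It was the lowest of the 10 genes in both groups, at 4.21 and 4.05 FPKM without Dox and at 1.27 and 1.01 FPKM with it. The groups did not overlap, and the mean was 3.62-fold lower with Dox. On the log2(FPKM + 1) scale, which understates changes of low genes, the log2 fold change was -1.26 (SE 0.127, adjusted p = 0.00329 in limma), and it was -0.57 with a pseudocount of 5. About 79 to 96 fragments per library stand behind the Dox values and 324 to 336 behind the untreated ones.

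Summed over the 3 ligands, the level was 48.78 and 45.9 FPKM without Dox and 14.17 and 14.12 FPKM with it. Dll1 made up 46.6% to 49.2% of that sum in all 4 libraries. Of the other ligand genes, Jag2 was at 6.54 and 6.06 FPKM without Dox and at 4.4 and 5.51 FPKM with it, which did not pass the threshold (log2 fold change -0.30, adjusted p = 0.234 in limma). Dll4, named after its values were seen, had a mean under 1 FPKM and was not tested. It was listed at 0.28 and 0.36 FPKM without Dox and at 0.04 and 0.03 FPKM with Dox.

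The receptor genes showed no change of that size. Notch3 (ENSMUSG00000038146, chr17:32120820-32166852, minus strand) was the most abundant receptor, at 38.97 and 31.68 FPKM without Dox and at 34.61 and 43.08 FPKM with Dox. The groups overlapped, and the difference of 0.13 on the log2 scale (SE 0.142, adjusted p = 0.633 in limma) was within the replicate spread. Notch1 (ENSMUSG00000026923, chr2:26457903-26516663, minus strand), the receptor best known for holding back neurogenesis, was at 11.54 and 9.0 FPKM without Dox and at 9.0 and 12.02 FPKM with it. Its groups also overlapped, at a difference of 0.03 on the log2 scale (SE 0.172, adjusted p = 0.942).

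Notch2 (ENSMUSG00000027878, chr3:98013527-98150361, plus strand), a receptor also known in the ciliary margin, was at 13.15 and 11.03 FPKM without Dox and at 7.64 and 9.77 FPKM with it. Both Dox libraries lay below both untreated ones, but the difference of -0.44 (SE 0.144) did not pass the threshold (adjusted p = 0.144 in limma). It passed when trends with GC content and transcript length were removed library by library (adjusted p = 0.0288), an alternative chosen after the data were seen, and it was -0.28 without Dox replicate 1. Of the sum over these 3 receptors, Notch2 took 20.7% and 21.3% without Dox and 14.9% and 15.1% with it.

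The receptors varied together between replicates. All 3 were higher in untreated replicate 1 than in untreated replicate 2, and higher in Dox replicate 2 than in Dox replicate 1. Their summed level was 63.66 and 51.71 FPKM without Dox and 51.25 and 64.87 FPKM with Dox, so libraries of the same group lay further apart than the group means did (57.7 ± 8.45 and 58.1 ± 9.63 FPKM, SD, n = 2 each). The signs of Notch1 and Notch3 turned negative without untreated replicate 2 (-0.14 and -0.01) and without Dox replicate 2 (-0.16 and -0.02). Notch4, mainly known from blood vessels, was at 6.16 and 3.4 FPKM without Dox and at 5.23 and 7.57 FPKM with it, in the same order between replicates, and did not pass (log2 fold change 0.38, adjusted p = 0.463 in limma). The receptor transcripts are long, from 8016 to 10500 nt for Notch1 to Notch3, and their GC content is 53.6% to 59.6%. The order between replicates was not particular to receptors or to long transcripts. Hes1, Lfng and Dll1 showed it too, with longest transcripts of 1468, 2305 and 3581 nt. Dll3, Jag1, Hes5 and Hey1 were also higher in untreated replicate 1, but were higher in Dox replicate 1 than in Dox replicate 2. With GC and length trends removed, the alternative chosen after the data were seen, the SE was 0.101 for Notch1, 0.0825 for Notch2 and 0.074 for Notch3. In the main fit it was 0.172, 0.144 and 0.142. For Hes1 and Dll3 the SE was larger with the trends removed, 0.115 against 0.102 and 0.134 against 0.127. The part of length or GC content in this replicate pattern was not itself tested.

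Lfng (ENSMUSG00000029570, chr5:140607320-140615545, plus strand) encodes Lunatic fringe, a Golgi enzyme that adds a sugar to Notch receptors and shifts their response towards Delta ligands. It was the most abundant of the 10 genes without Dox, at 59.04 and 48.73 FPKM, and stood at 19.24 and 21.17 FPKM with Dox. The groups were well apart, 2.67-fold lower with Dox by the means, a difference of -1.37 on the log2 scale (SE 0.111, adjusted p = 0.00162 in limma). Its paralog Mfng, Manic fringe, fell too, from 11.5 and 11.49 FPKM to 2.31 and 2.7 FPKM (log2 fold change -1.84, SE 0.106, adjusted p = 5.35e-04), or by 1.14 with a pseudocount of 5. Rfng, Radical fringe, was at 7.6 and 7.65 FPKM without Dox and at 8.56 and 10.07 FPKM with it, a difference that did not pass (log2 fold change 0.25, adjusted p = 0.228 in limma).

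The targets went in opposite directions. Hes1 (ENSMUSG00000022528, chr16:30064384-30067796, plus strand) encodes a repressor that maintains neural and retinal progenitors and is known to be expressed in early neuroepithelium also under signals other than Notch. It was listed at 35.99 and 31.08 FPKM without Dox and at 81.23 and 92.1 FPKM with Dox. Both Dox libraries were far above both untreated libraries, with means of 33.5 ± 3.47 and 86.7 ± 7.69 FPKM (SD, n = 2 each) and a 2.58-fold higher level. The log2 fold change was 1.34 (SE 0.102, adjusted p = 0.00123 in limma), 173rd from the highest of all tested genes.

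Hes5 (ENSMUSG00000048001, chr4:154960923-154962371, plus strand), a closely related repressor and in neural progenitors a standard readout of Notch activity, was at 26.08 and 21.72 FPKM without Dox and at 10.23 and 9.62 FPKM with it. The groups did not overlap, and the mean was 2.41-fold lower with Dox. The log2 fold change was -1.18 (SE 0.109, adjusted p = 0.00252 in limma). Within a library the level of Hes1 was 1.38 and 1.43 times that of Hes5 without Dox, and 7.94 and 9.57 times with Dox. On the log2(FPKM + 1) scale this ratio was 0.47 ± 0.0338 without Dox and 3.0 ± 0.184 with Dox (SD, n = 2 each), a difference of 2.53. Since this opposition was part of the choice of the genes, the ratio is a description. An exact two-sided permutation test of it gave p = 0.333, the lowest value possible with 2 libraries against 2.

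Hey1 (ENSMUSG00000040289, chr3:8663359-8667256, minus strand), a related repressor best known from heart and vessels and also expressed in neural progenitors, followed Hes5 in direction. It stood at 15.33 and 14.98 FPKM without Dox and at 7.04 and 6.98 FPKM with it. Replicates nearly coincided, and the log2 fold change was -1.01 (SE 0.0821, adjusted p = 0.00162 in limma). The 3 target genes together summed to 77.4 and 67.78 FPKM without Dox and to 98.5 and 108.7 FPKM with Dox. Hes1 made up 45.9% to 46.5% of that sum without Dox and 82.5% to 84.7% with it.

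**Figure D2:**
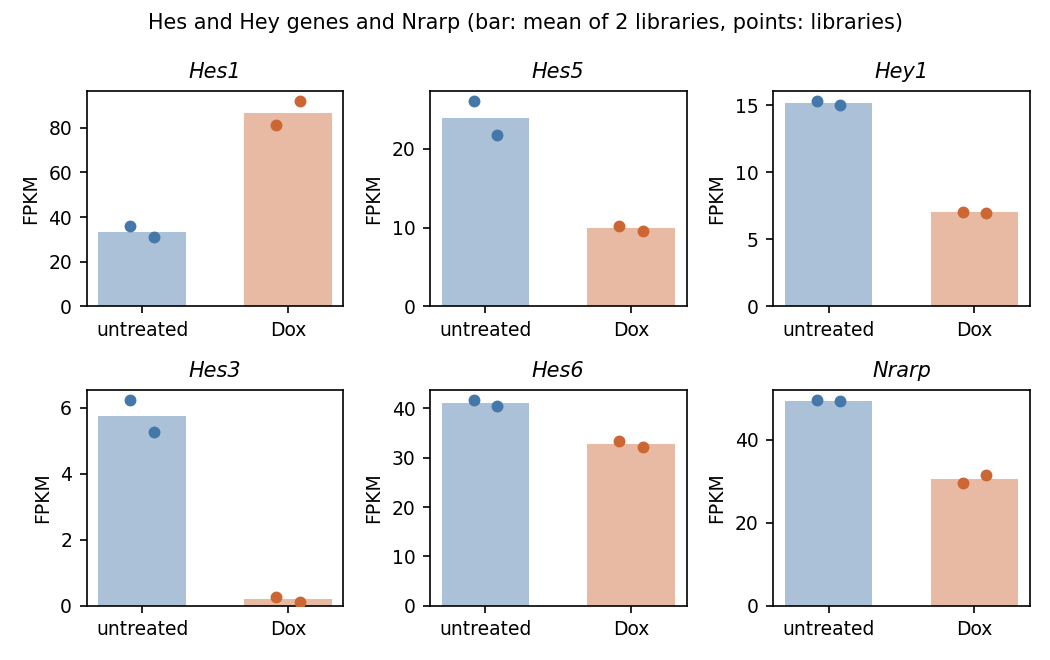
Levels of Hes1, Hes5, Hey1, Hes3, Hes6 and Nrarp in FPKM, each panel on its own linear axis from 0. Bars are means of 2 libraries and points are the libraries. Hes1 is the only panel in which the Dox libraries are higher, at 81.23 and 92.1 FPKM.

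A further list of 8 genes holds Hes and Hey relatives, grouped by family and not by shown control by Notch, and the feedback inhibitor Nrarp. Of these 3 were tested, and Hes3, Hes6 and Nrarp were all lower past the threshold. The other 5 had a mean under 1 FPKM, among them Hey2, at 0.28 and 0.17 FPKM without Dox and 0.28 and 0.26 FPKM with it. Hes3, a progenitor repressor known from early neuroepithelium and the midbrain-hindbrain border, was at 6.23 and 5.27 FPKM without Dox and at 0.27 and 0.11 FPKM with it. The Dox libraries held almost none of it (log2 fold change -2.50, SE 0.147, adjusted p = 5.54e-04 in limma), and the log2 fold change was -4.39 with a pseudocount of 0.1 and -1.05 with a pseudocount of 5. Nrarp, an ankyrin-repeat protein gene that is itself a Notch target, was at 49.64 and 49.39 FPKM without Dox and at 29.65 and 31.5 FPKM with it (log2 fold change -0.68, adjusted p = 0.00328). Hes6, which opposes Hes1 and favours neuronal differentiation, moved least, from 41.7 and 40.48 FPKM to 33.4 and 32.21 FPKM (log2 fold change -0.32, adjusted p = 0.0439), and kept its call in 6 of 15 alternatives. Heyl, named after its values were seen and under the filter, was listed at 2.11 and 1.43 FPKM without Dox and at 0.09 and 0.06 FPKM with Dox.

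**Figure D3:**
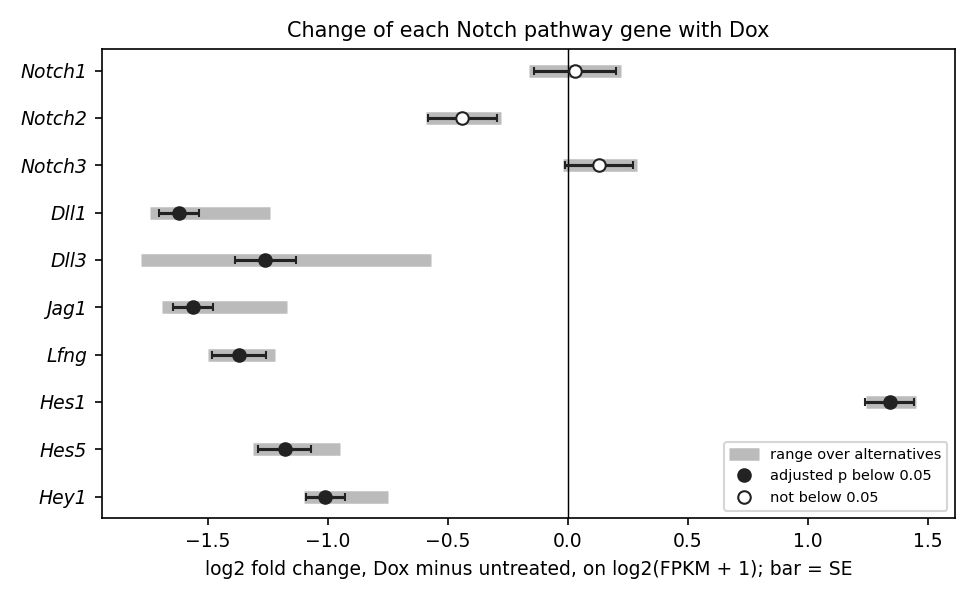
Log2 fold change of each of the 10 genes, Dox minus untreated, on the log2(FPKM + 1) scale. Points are the estimates with their SE, filled where the adjusted p in limma is below 0.05, and grey bars are the range over the alternative settings. The grey bars of the 7 called genes stay on the same side of 0, and those of Notch1 and Notch3 cross it.

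The order of the levels changed between the groups. Without Dox the order from the highest mean was Lfng (53.9 FPKM), Notch3 (35.3), Hes1 (33.5), Hes5 (23.9), Dll1 (22.9), Jag1 (20.4), Hey1 (15.2), Notch2 (12.1), Notch1 (10.3) and Dll3 (4.13). The libraries of 3 neighbouring pairs overlapped there, Notch3 with Hes1, Hes5 with Dll1, and Notch2 with Notch1. With Dox it was Hes1 (86.7 FPKM), Notch3 (38.8), Lfng (20.2), Notch1 (10.5), Hes5 (9.93), Notch2 (8.71), Hey1 (7.01), Dll1 (6.78), Jag1 (6.23) and Dll3 (1.14). Here Notch1 overlapped with Hes5, and Hes5 with Notch2. Hes1 passed from the third place to the first, and Dll1 from the fifth to the eighth.

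Of 74 other listed Notch pathway genes 60 were tested, of which 0 were higher and 8 lower at an adjusted p below 0.05 in limma, or 0% and 13.3%, against 4.44% and 4.87% of all tested genes. At an unadjusted p below 0.05 in limma they were 4 and 11. The share of all tested genes at that unadjusted threshold is not given here. Such counts, also those of single lists below, therefore cannot be set against a background. Their median log2 fold change was -0.00172, next to -0.0042 over all tested genes. Leaving out any of the 4 libraries left 4 or 5 of them called lower, as did no filter (4), rescaling to TPM (5), the replicate block (5) and eBayes without a trend, which called 5 lower and 2 higher (Dtx1 and Maml2, named after their values were seen).

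The core machinery gave a single call. Rbpj, the DNA-binding partner of cleaved Notch, was at 32.58 and 31.17 FPKM without Dox and at 30.3 and 32.27 FPKM with it, and the groups overlapped. Of the 9 tested genes of the nuclear complex 0 were called in limma. Before adjustment, 1 had a p below 0.05 upwards and 1 downwards. Snw1, the most abundant, was at 87.31, 87.1, 90.54 and 84.33 FPKM in untreated replicates 1 and 2 and Dox replicates 1 and 2. Of 8 tested genes of receptor cleavage, which include the gamma-secretase subunits, 1 was called. That was Adam17, a metalloprotease gene, at 26.29 and 25.12 FPKM without Dox and 20.13 and 19.2 FPKM with it (log2 fold change -0.37, adjusted p = 0.0376 in limma), which kept its call in 7 of 15 alternatives. Adam10, the main Notch-cutting protease, was at 25.18 and 24.32 FPKM without Dox and at 24.15 and 26.77 FPKM with it.

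The other called genes each came from a different step. Dner, an atypical ligand gene of neurons, fell from 2.53 and 2.12 FPKM to 0.28 and 0.27 FPKM (log2 fold change -1.38, adjusted p = 0.00349 in limma). Its log2 fold change was -2.69 with a pseudocount of 0.1 and -0.47 with a pseudocount of 5. Tle1, a Groucho corepressor gene whose product Hes proteins recruit, fell from 47.48 and 47.18 FPKM to 31.46 and 34.89 FPKM (log2 fold change -0.50, adjusted p = 0.0152), with the call kept in 11 of 15 alternatives. Dtx4, a Deltex ubiquitin ligase gene, fell from 48.94 and 47.91 FPKM to 35.58 and 39.07 FPKM (log2 fold change -0.37, adjusted p = 0.0392), with the call kept in 7 of 15.

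**Figure D4:**
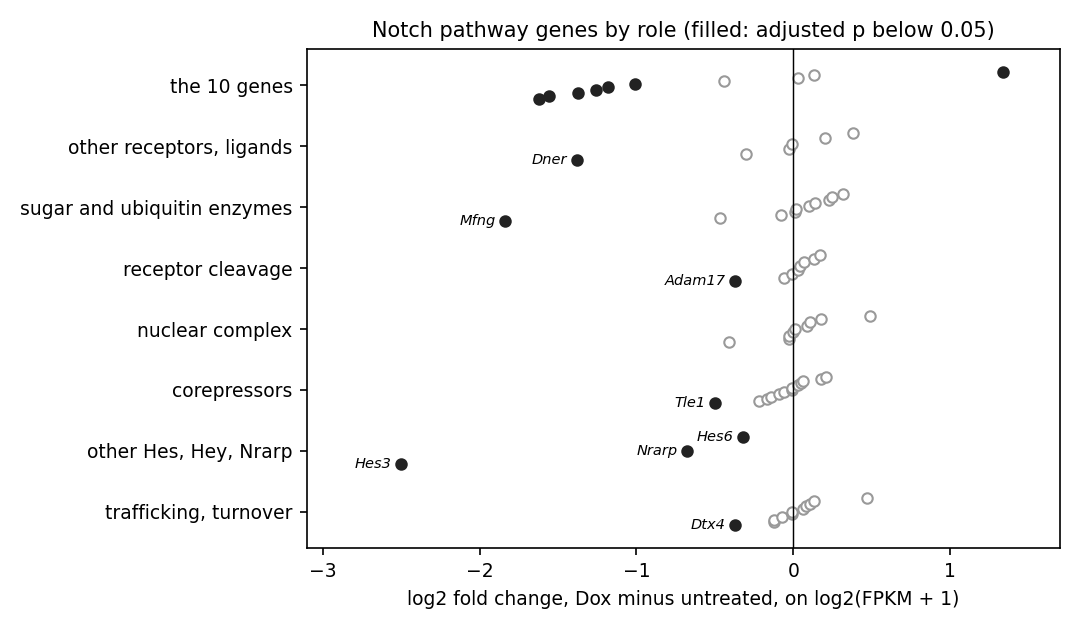
Log2 fold change (Dox minus untreated, log2(FPKM + 1) scale) of the tested Notch pathway genes, in rows by role. Each point is a gene, filled where the adjusted p in limma is below 0.05. The 8 named points are the called genes outside the 10, all on the lower side, and most other points lie near 0.

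Markers of neurons moved with the ligands. All 9 tested genes of the postmitotic neuron list were lower with Dox, and the list summed to 210 to 211 FPKM without Dox and 99.1 to 101 FPKM with it. None of its 13 genes was at 0 in every library. Gap43, a growth cone gene, fell from 38.66 and 42.18 FPKM to 9.28 and 6.94 FPKM, and Tubb3, the most abundant of the list, from 118.53 and 116.78 FPKM to 75.76 and 79.83 FPKM. Of 8 tested proneural and neurogenic genes 7 were lower and 1, Insm1, was higher, and the sum over the list was 44.0 to 45.9 FPKM without Dox and 12.2 to 16.2 FPKM with it. Neurog2, a proneural factor gene that Hes proteins repress and that activates Dll1, fell from 5.4 and 4.64 FPKM to 0.3 and 0.4 FPKM (log2 fold change -2.15, adjusted p = 6.80e-04 in limma), and Gadd45g from 15.61 and 13.68 FPKM to 2.34 and 2.52 FPKM. In this list 3 genes, Neurog3, Neurod2 and Neurod6, were listed at 0 in all libraries. The part of these cells in the lower Dll1, Dll3 and Hes5 was not tested.

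Other marker lists moved as well. Of 13 tested dorsal forebrain and diencephalon genes 11 were lower and 2 higher, with Zic1 from 70.99 and 66.83 FPKM to 3.13 and 3.37 FPKM, and the list summed to 571 to 583 FPKM without Dox and 195 to 200 FPKM with it. Of 8 radial glia genes 5 were lower and 2 higher (730 to 737 FPKM summed without Dox, 422 to 456 FPKM with it). Of 7 neural crest genes 4 were lower and 0 higher (35.7 to 37.5 FPKM and 9.22 to 12.4 FPKM). At an unadjusted p below 0.05 in limma, 5 of these neural crest genes were lower and 2 higher. Among 9 endothelial and blood genes 8 stayed under 1 FPKM in every library, and the other, Kdr, rose from 0.22 and 0.25 FPKM to 13.91 and 17.63 FPKM. That list summed to 1.03 to 1.10 FPKM without Dox and 15.4 to 19.8 FPKM with it. No gene of the mesendoderm list reached a mean of 1 FPKM over the 4 libraries. Its highest, Hand1, was at 0.28 and 0.14 FPKM without Dox and at 1.6 and 0.95 FPKM with it. Of the 7 tested pluripotency and 5 tested surface epithelium genes 0 were called in limma, with 1 of each lower at an unadjusted p below 0.05. The part of these lists in the changes of the 10 genes was not tested.

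The genes most like Hes1 and Hes5 were sought by the distance between log2(FPKM + 1) values centred on their mean over the 4 libraries, a measure that 4 libraries pin down only loosely. Nearest to Hes1 were Aff1 (distance 0.101), Fbln1 (0.101) and Efemp1 (0.104). Nearest to Hes5 were Rerg (0.0711), the neurofilament gene Nefm (0.0741) and Mycn (0.0802). Mycn was at 36.9 and 33.33 FPKM without Dox and at 15.44 and 14.28 FPKM with it.

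The m6A motif GGACT was counted in the longest annotated transcript of each gene, as a sequence feature and not as a measured mark. Hes1 and Hes5 each hold 2 (1.36 and 1.57 per kb), Dll1 holds 5 (1.40 per kb), Jag1 6 (1.07 per kb) and Lfng 0. Dll3 holds 3 (1.15 per kb) and Hey1 2 (0.825 per kb). The receptors, which were not called, hold 12 (Notch1, 1.26 per kb), 14 (Notch2, 1.33 per kb) and 10 (Notch3, 1.25 per kb). The median over 13010 tested genes with a transcript of at least 500 nt was 1.02 per kb, and 90.1% of these genes hold at least 1. Exons of Notch1, Notch2, Notch3, Dll1 and Hes5 overlap those of another annotated gene, so their values are uncertain to that extent, and those of Dll3, Jag1, Hes1, Hey1 and Lfng do not.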

How the data were processed

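Poly(A) RNA was sequenced in paired ends from 4 libraries, 2 untreated and 2 Dox, grouped by the treatment label. The authors deposited FPKM values, rounded to 2 decimals, with each library in its own column. The submitters' processing notes name STAR, Cuffdiff and mm10, without roles or versions. Annotation release and strand setting are not given in the sources used here. Library columns were matched by the library names in the labels.

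FPKM is not a count, so log2(FPKM + 1) was tested with limma 3.58.1 in R 4.3.3 (eBayes with trend, no covariate) on the 13931 genes whose mean over the libraries reached 1 FPKM. Adjustment was by Benjamini-Hochberg over all of these, two-sided, at a threshold of 0.05. The fit was tested on simulated data.

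Depth was recovered from the steps of low values of single-transcript genes. At the fitted depths 77.2% to 79.6% of low values fell within 0.1 of a whole fragment, against 11.8% to 18.5% at other depths. Fragments behind a value use the longest transcript and are approximate.

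Coordinates and transcripts are GENCODE M21 (GRCm38), and promoter sequences are RefSeq, GRCm38.p6. Named besides the 10 genes were up to 4 called genes per pathway list (else the most abundant), up to 2 called plus the most abundant per marker list, 3 nearest profiles each for Hes1 and Hes5, and Mettl3. The members and lists were chosen with earlier results of these data known. Other genes named are pathway relatives given for completeness, chosen after their values were seen. One listed gene is not reported here but stays in the counts.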

Additional observations from a re-analysis of the deposited data

How the results depend on the processing

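The calls of Hes1, Hes5, Dll1, Jag1, Hey1 and Lfng held in all 15 alternatives, and that of Dll3 in all 14 in which it was tested. Over these, log2 fold changes ranged from 1.24 to 1.45 for Hes1, -1.31 to -0.95 for Hes5, -1.74 to -1.24 for Dll1, -1.69 to -1.17 for Jag1, -1.10 to -0.75 for Hey1 and -1.50 to -1.22 for Lfng. Adjusted p-values of these 7 genes in limma were at most 0.0427. A minimum mean of 5 FPKM left Dll3 untested and 5 of the genes called lower. Among the 15 alternatives Notch2 passed only with the GC and length trend removed. Without untreated replicate 2 Notch1 was at -0.14 and Notch3 at -0.01, and without Dox replicate 2 they were at -0.16 and -0.02. Over the fits that left out 1 library each, they ranged from -0.16 to 0.22 and from -0.02 to 0.29. The cause was not tested. The difference in the log2 ratio of Hes1 to Hes5 was 2.20 with a pseudocount of 5, by construction of the scale, and 2.40 to 2.66 with a library left out.

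Genes called over the whole table rose from 619 higher and 678 lower to 718 and 742 with robust estimation and to 912 and 932 with GC and length trends removed. They fell to 336 and 409 without a filter and to 408 and 413 with a minimum of 5 FPKM, where fewer were tested. Without untreated replicate 1 they were 318 and 335, without untreated replicate 2 320 and 377, without Dox replicate 1 315 and 336, and without Dox replicate 2 262 and 331, from fewer libraries, with the lone library assumed to vary like the other group. The other Notch pathway genes called lower, 8 in all, were 4 without a filter, 5 with TPM, 5 (and 2 higher) without the trend, and 4 to 5 with a library left out. With GC and length trends removed, an alternative added after the data were seen, 9 were lower and 1 higher. In a fit with a replicate block (the number in the titles), 5 were called lower, and the calls of the 10 genes did not change. Deviations of same-numbered libraries from their group means had a correlation of -0.043, so nothing shows that equal numbers mark paired libraries.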
